A study of Mus musculus with 10 samples.

Results

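Tumor necrosis factor (TNF), the ligand Tnfsf13b and 8 receptors of that superfamily were followed in cortical microglia of mice 9 months old. The 10 genes were chosen by symbol: the ligands Tnf and Tnfsf13b, and the receptors Tnfrsf1a, Tnfrsf1b, Ltbr, Cd40, Tnfrsf11a, Fas, Tnfrsf21 and Tnfrsf25. All 10 were found among the 24421 gene symbols counted, and all 10 were among the 18727 genes with enough reads to be tested.

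RNA was sequenced from WT mice (n = 3 libraries), from APP/PS1 mice (n = 4) and from APP/PS1 mice given N-acetyl sphingosine (APP/PS1+N-AS, n = 3). APP/PS1 mice overexpress transgenes for human amyloid precursor protein with the Swedish mutation and for a mutant presenilin-1, and develop amyloid plaques; the promoters that drive them are not given in the sources used here. N-AS, an acetylated sphingolipid, was given under the skin every day for 8 weeks (30 mg/kg), starting when the mice were 7 months old. The text of the study describes the APP/PS1 mice set against N-AS as given vehicle; the labels name no vehicle, for these or for the WT mice. Each library was a pool of 2 mice, and the cells came from papain-dissociated cortex by density gradient, without a sort.

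TNF is made by activated microglia and macrophages as a membrane protein that the protease ADAM17 releases. It acts through TNFR1 (Tnfrsf1a), which is widely expressed and can start NF-κB signaling or cell death, and through TNFR2 (Tnfrsf1b), which has no death domain and is found mostly on immune and endothelial cells. Other members serve lymphocyte survival (Tnfsf13b, which encodes BAFF), lymphoid organ formation (Ltbr), antigen-presenting cell activation (Cd40), osteoclast formation (Tnfrsf11a, RANK) or death signaling (Fas, Tnfrsf21 and Tnfrsf25 all have a death domain).

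The total count was 8805804 to 19432075 reads per library. WT replicate 1 had the lowest total and yet the fewest genes without a read, 566, against 3305 in WT replicate 2 with 17102559 reads. The cause was not tested, and it bears most on genes with few reads. Marker genes showed that the fractions were not pure. In the WT libraries the 14 microglial markers summed to 896 to 1267 CPM (reads scaled to the size of each library), whereas the 10 neuronal markers summed to 3081 to 6173 CPM and the 10 oligodendrocyte markers to 2469 to 7147 CPM. The microglial sum was 2631 to 3364 CPM in APP/PS1 and 1660 to 2137 CPM in APP/PS1+N-AS, so the 3 groups did not overlap. Fewer microglia in a fraction and less of an RNA per microglial cell cannot be told apart in such bulk samples. The female-specific transcript Xist had 33 to 37 reads in the WT libraries, 5253 to 11188 in APP/PS1 and 29 to 8848 in APP/PS1+N-AS, where replicate 3 was the low one. The 4 Y-linked genes counted had 1492 to 3700 reads in WT, 13 to 690 in APP/PS1 without N-AS, and 470 to 2377 after N-AS. The methods of the study describe the use of males only, which the high Xist reads in 6 of the 10 libraries go against. All 4 APP/PS1 libraries are among these 6, so genotype and sex-linked differences cannot be told apart in APP/PS1 against WT. No fit of that comparison without these libraries can be made. Among library numbers 7 to 10, APP/PS1 replicates 3 and 4 had 13 Y-linked reads each. APP/PS1+N-AS replicate 3 had 29 Xist and 2377 Y-linked reads. N-AS and sex-linked differences cannot be told apart among these libraries either.

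Promoters of the 2 ligands and of Tnfrsf25 are shown because these 3 genes had the largest log2 fold changes of the 10 members. Each run is the 250 bases upstream of a RefSeq transcription start, 5′ to 3′ on the strand of the gene, in GRCm38.p6. Tnf lies on the minus strand at chr17:35202008-35202257, Tnfsf13b on the plus strand at chr8:10006217-10006466 and Tnfrsf25 on the plus strand at chr4:152115684-152115933. Capitals mark matches to a TATA box (TATAAA) or, on either strand, to the core bound by the myeloid factor PU.1 (GAGGAA).
Tnf: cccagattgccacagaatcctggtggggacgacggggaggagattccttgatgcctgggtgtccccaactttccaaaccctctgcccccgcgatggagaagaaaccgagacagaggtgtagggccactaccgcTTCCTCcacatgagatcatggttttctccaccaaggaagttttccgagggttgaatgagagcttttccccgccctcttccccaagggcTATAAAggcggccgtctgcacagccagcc
Tnfsf13b: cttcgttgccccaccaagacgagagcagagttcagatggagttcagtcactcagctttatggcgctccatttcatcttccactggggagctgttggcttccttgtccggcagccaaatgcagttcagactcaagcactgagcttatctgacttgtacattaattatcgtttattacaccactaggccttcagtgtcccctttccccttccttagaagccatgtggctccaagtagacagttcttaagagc
Tnfrsf25: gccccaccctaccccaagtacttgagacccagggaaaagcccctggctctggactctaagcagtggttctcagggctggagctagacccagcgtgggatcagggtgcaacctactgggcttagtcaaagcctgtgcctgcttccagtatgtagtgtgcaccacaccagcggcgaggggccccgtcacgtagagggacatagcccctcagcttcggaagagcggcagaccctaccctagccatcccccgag
The Tnf promoter held TATAAA at positions -29 to -24 and the PU.1 core, as TTCCTC on the opposite strand, at positions -117 to -112, counted back from the start site. These motifs were present in 12.4% and 23.3% of all 32851 promoter windows of that length, searched on both strands. The Tnfsf13b and Tnfrsf25 windows shown held neither, nor the AP-1 motif TGANTCA (6.75% of windows) nor the NF-κB consensus (3.90% of windows). Both genes have a second RefSeq window, not shown: that of Tnfsf13b (chr8:10006383-10006632) held the AP-1 motif as TGAGTCA at positions -127 to -121, and that of Tnfrsf25 (chr4:152116093-152116342) held the PU.1 core at positions -60 to -55. RefSeq windows were matched for 9 of the 10 genes, 11 windows in all.

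To see how the members stood relative to each other, levels were expressed per kb of exon (GENCODE M21). In WT libraries, Tnfrsf21 (57.6 CPM per kb), Tnfrsf11a (47.9 CPM per kb) and Tnfrsf1b (30.8 CPM per kb) were the most abundant, and each overlapped its neighbor in that order. All 3 lay above Fas (8.82 CPM per kb) and Tnfrsf1a (7.57 CPM per kb) in every WT library. Tnf, at 1.92 CPM per kb, ranked eighth of the 10 in WT, and its libraries lay below those of Ltbr and above those of Cd40. In APP/PS1 libraries Tnf reached 8.94 CPM per kb and ranked sixth, where it overlapped both Fas (9.22 CPM per kb) and Ltbr (5.48 CPM per kb). In APP/PS1+N-AS libraries it had 6.61 CPM per kb and overlapped Tnfrsf1a and Tnfrsf25. Tnfsf13b was the lowest member in WT (0.176 CPM per kb) and in APP/PS1+N-AS (0.478 CPM per kb), overlapping Cd40 in both.

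**Figure D1:**
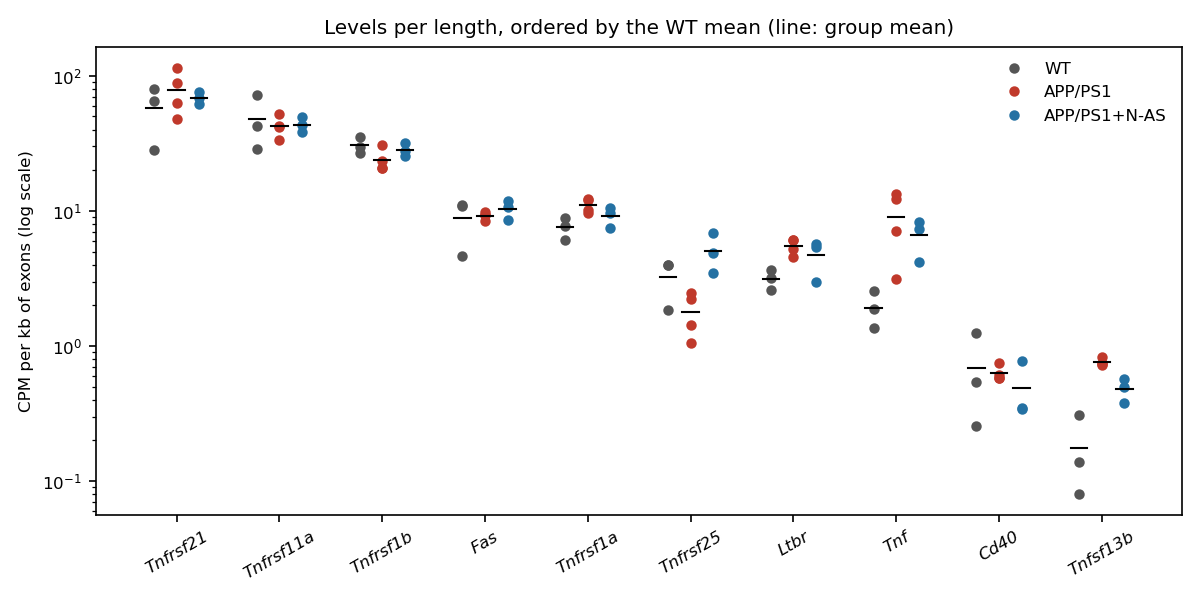
Levels of the 10 genes in CPM per kb of exon on a log axis, with 1 point per library (WT gray, APP/PS1 red, APP/PS1+N-AS blue) and a line at each group mean. Tnfrsf21, Tnfrsf11a and Tnfrsf1b sit above every library of the other 7 genes, and only Tnf and Tnfsf13b have WT libraries that all lie under every library of both other groups.

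The first comparison asked which members differed between APP/PS1 and WT microglia. Both ligands rose and no receptor passed the test: 2 of 10 members were higher at an adjusted p under 0.05, in a comparison in which 2.67% of all genes were called higher and 3.47% were called in either direction. Tnf rose 4.73-fold and Tnfsf13b 4.17-fold. At an unadjusted p under 0.05, 4 members were higher and 1 was lower, against 17.2% of all genes in either direction. Tnf, Tnfsf13b, Ltbr and Tnfrsf1a had libraries that did not overlap between the groups, all 4 higher in APP/PS1, against 14.9% of all genes. The median log2 fold change was 0.26 over the 10 members and -0.07 over all genes tested.

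Tnf (chr17:35199381-35202007, minus strand, with no overlapping gene in the annotation) had 4.15, 3.09 and 2.22 CPM in WT replicates 1 to 3. In APP/PS1 replicates 1 to 4 it had 21.7, 20.1, 11.7 and 5.14 CPM. Every APP/PS1 library lay above every WT library, but replicate 4 was close to the highest WT value, and the APP/PS1 libraries spread by a coefficient of variation of 52.7%. The means were 3.15 ± 0.971 CPM (SD, n = 3) in WT and 14.6 ± 7.72 CPM (SD, n = 4) in APP/PS1, on 35 to 50 and 108 to 252 reads. The log2 fold change was 2.24 (SE 0.48, 95% interval 1.17 to 3.31, edgeR adjusted p = 0.0308). The difference of mean log2 CPM was 2.50 among library numbers 1 to 6 and 1.75 among numbers 7 to 10. WT replicate 3 was the only WT library among the latter. The adjusted p stayed under 0.05 in 3 of 10 fits with a library left out. It was 0.0706, 0.0948 and 0.0731 without WT replicates 1, 2 and 3, then 0.0622, 0.0768 and 0.0613 without APP/PS1 replicates 1, 2 and 3, and 0.0558 without APP/PS1+N-AS replicate 1.

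Tnfsf13b (chr8:10006467-10039072, plus strand), the gene of the B-cell survival factor BAFF, had 0.950, 0.557 and 2.12 CPM in WT and 5.17, 5.03, 4.98 and 5.71 CPM in APP/PS1. The groups did not overlap. The 4 APP/PS1 libraries had a coefficient of variation of 6.35%, on too few reads to serve as a measure of reproducibility. The means were 1.21 ± 0.813 CPM (SD, n = 3) and 5.22 ± 0.332 CPM (SD, n = 4). Reads were few, 8 to 44 per WT library and 60 to 120 per APP/PS1 library, and the annotated gene Gm44789 overlaps on the opposite strand. The log2 fold change was 2.06 (SE 0.39, 95% interval 1.20 to 2.92, edgeR adjusted p = 0.0176). In mean log2 CPM the groups differed by 2.60 among library numbers 1 to 6. They differed by 1.28 among numbers 7 to 10, where WT replicate 3 was the only WT library. The adjusted p passed in 8 of 10 fits with a library left out, and was 0.0614 without WT replicate 1 and 0.0507 without APP/PS1 replicate 4.

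Microglial markers were higher in the same comparison, in which 3.47% of all genes were called in either direction. Of the 14 microglial markers, 11 were called higher in APP/PS1 than in WT, none was at 0 in any group, and their median log2 fold change was 1.39. Of the 10 oligodendrocyte markers, 3 were called lower, with a median of -1.34. Of the 9 astrocyte markers, 2 were called higher: Gfap, an intermediate filament of reactive astrocytes, had 10.9 to 17.6 CPM in WT and 498 to 922 CPM in APP/PS1 (log2 fold change 5.65, SE 0.55, adjusted p = 0.000545), and S100b had 13.7 to 20.5 and 30.3 to 49.4 CPM (1.21, SE 0.24, adjusted p = 0.0220). The whole astrocyte list summed to 2261 to 2685 CPM in WT and 2487 to 3981 CPM in APP/PS1, with a median log2 fold change of -0.13. Neutrophil markers, another source of Tnf, summed to 3.32 to 9.02 CPM in WT and 4.04 to 66.7 CPM in APP/PS1, where the highest value was that of replicate 3. T cell markers summed to 47.7 to 104 CPM in WT and 71.4 to 161 CPM in APP/PS1, B cell markers to 39.8 to 124 and 76.3 to 217 CPM, and markers of border macrophages and monocytes to 34.0 to 57.8 and 34.6 to 60.7 CPM. The part of cell makeup in the ligand values was not tested.

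**Figure D2:**
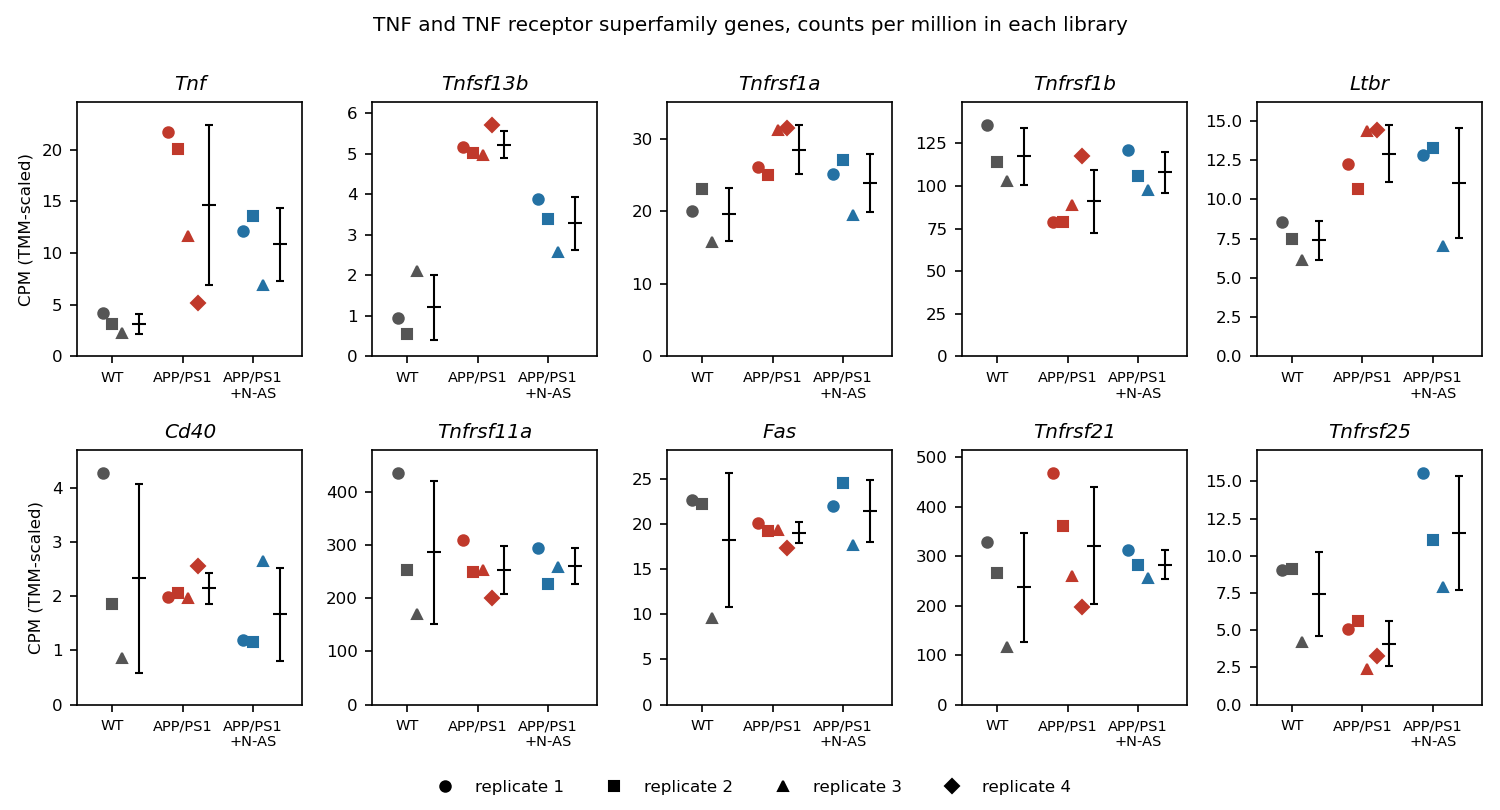
CPM of each of the 10 genes in every library, on linear axes from 0; marker shapes give the replicate number, and the black bar is the group mean with its SD (n = 3, 4 and 3). The 4 APP/PS1 libraries lie above the 3 WT libraries for Tnf, Tnfsf13b, Tnfrsf1a and Ltbr, and the 3 APP/PS1+N-AS libraries lie above the 4 APP/PS1 libraries for Tnfrsf25.

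The receptors for TNF itself were next. Tnfrsf1a (chr6:125349362-125362484, plus strand) had 20.1, 23.1 and 15.7 CPM in WT and 26.1, 25.1, 31.2 and 31.6 CPM in APP/PS1. No WT library reached the lowest APP/PS1 library, yet the difference did not pass the adjusted threshold (log2 fold change 0.54, SE 0.17, 95% interval 0.16 to 0.92, adjusted p = 0.127). Tnfrsf1b (chr4:145213463-145246870, minus strand) had 136, 114 and 103 CPM in WT and 78.6, 79.1, 88.8 and 118 CPM in APP/PS1. Its groups overlapped through APP/PS1 replicate 4, and its log2 fold change was -0.37 (SE 0.17, 95% interval -0.75 to 0.01, adjusted p = 0.310). Among library numbers 1 to 6 the difference of mean log2 CPM was -0.66 and among numbers 7 to 10 it was -0.01. A fit of numbers 1 to 6 alone called Tnfrsf1b lower (log2 fold change -0.70, edgeR adjusted p = 0.0255).

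Ltbr (chr6:125306571-125313885, minus strand), the receptor of lymphotoxin and of Tnfsf14, was the receptor closest to the threshold. It had 8.55, 7.48 and 6.12 CPM in WT and 12.2, 10.6, 14.3 and 14.4 CPM in APP/PS1, without overlap. The log2 fold change was 0.82 (SE 0.24, 95% interval 0.30 to 1.34, adjusted p = 0.0915), and the adjusted p was 0.0279 in the fit without APP/PS1+N-AS replicate 3 and 0.0262 with DESeq2. Tnfrsf25 (chr4:152115934-152120119, plus strand), the death-domain receptor of Tnfsf15, had 9.02, 9.09 and 4.19 CPM in WT and 5.09, 5.61, 2.39 and 3.23 CPM in APP/PS1. WT replicate 3 fell within the APP/PS1 range, and the log2 fold change was -0.86 (SE 0.37, 95% interval -1.67 to -0.05, adjusted p = 0.256).

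For the other 4 receptors the WT libraries spread more widely than the groups differed. Tnfrsf11a (chr1:105780718-105847981, plus strand) ranged from 171 to 435 CPM in WT and from 201 to 310 CPM in APP/PS1. Tnfrsf21 (chr17:43016555-43089189, plus strand), a receptor expressed by neurons and oligodendrocyte lineage cells as well, ranged from 115 to 329 CPM in WT and from 197 to 467 CPM in APP/PS1. Fas (chr19:34290666-34327772, plus strand, with Gm27818 annotated inside it) ranged from 9.63 to 22.7 CPM in WT and from 17.4 to 20.1 CPM in APP/PS1. Cd40 (chr2:165055627-165072948, plus strand) was the thinnest of these, with 18 to 36 reads per WT library and 23 to 54 per APP/PS1 library. The 95% intervals of their log2 fold changes all included 0: -0.79 to 0.44 for Tnfrsf11a, -0.35 to 1.23 for Tnfrsf21, -0.49 to 0.64 for Fas and -1.18 to 1.06 for Cd40. The sign for Cd40 turned under scaling by total counts and under quantile normalization. Differences of mean log2 CPM are given next, first among library numbers 1 to 6, then among 7 to 10. They were -0.25 and 0.40 for Tnfrsf11a, -0.19 and 0.92 for Fas, and -0.46 and 1.26 for Cd40. For Tnfrsf21 they were 0.47 and 0.97. WT replicate 3 was the only WT library among numbers 7 to 10.

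**Figure D3:**
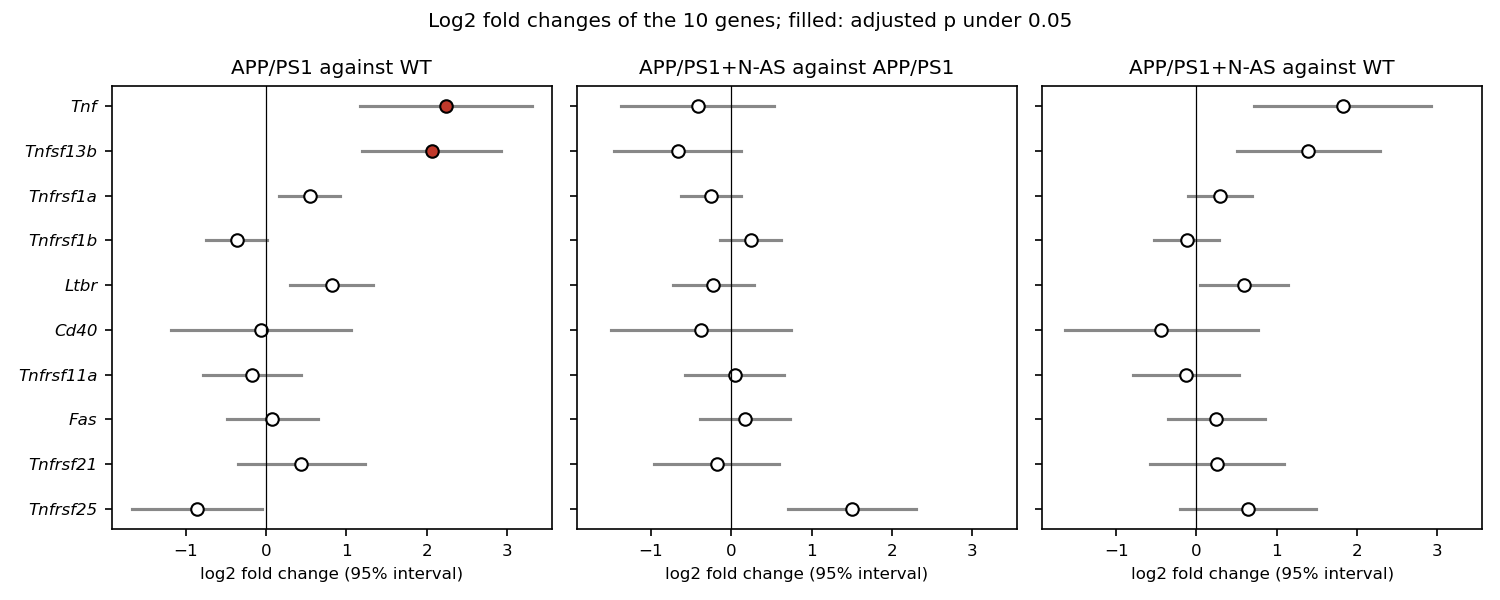
Log2 fold change of each gene with its 95% interval in the 3 comparisons; filled points have an adjusted p under 0.05. Filled points are present only for Tnf and Tnfsf13b in APP/PS1 against WT, and the interval of Tnfrsf25 lies above 0 in APP/PS1+N-AS against APP/PS1, where its adjusted p was 0.478.

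The second comparison asked which members differed after N-AS. No member passed the adjusted threshold between APP/PS1+N-AS and APP/PS1, and neither did any other gene with edgeR (0% of 18727), whereas 1653 genes (8.83%) had an unadjusted p under 0.05 and DESeq2 called 73 genes. Among the members, 1 had an unadjusted p under 0.05, and 2 had libraries that did not overlap, against 12.7% of all genes. The median log2 fold change of the members was -0.20, and that of all genes tested was -0.01. This comparison and the first share the APP/PS1 libraries, so their values stand side by side and are not independent.

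Tnfrsf25 had 15.5, 11.1 and 7.90 CPM in APP/PS1+N-AS replicates 1 to 3, on 107 to 236 reads, against 2.39 to 5.61 CPM in APP/PS1 on 35 to 68 reads. All 3 treated libraries lay above all 4 APP/PS1 ones. The means were 11.5 ± 3.84 CPM (SD, n = 3) and 4.08 ± 1.52 CPM (SD, n = 4). The log2 fold change was 1.51 (SE 0.36, 95% interval 0.71 to 2.30). In mean log2 CPM the groups differed by 1.27 among library numbers 1 to 6 and by 1.46 among numbers 7 to 10. Replicate 3 was the only treated library among the latter. Its unadjusted p was 0.00159 and its adjusted p 0.478 with edgeR, and DESeq2 gave an adjusted p of 0.0301. Its ligand Tnfsf15 had 81.1 ± 31.8 CPM (SD, n = 3) after N-AS against 97.3 ± 39.2 CPM (SD, n = 4) without it, with libraries that overlapped.

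Tnf had 12.1, 13.6 and 6.86 CPM after N-AS, within the 5.14 to 21.7 CPM range of APP/PS1. The log2 fold change was -0.42 (SE 0.43, 95% interval -1.37 to 0.54, adjusted p = 0.819). Each treated library was below the APP/PS1 library of the same replicate number. APP/PS1 replicate 4 (5.14 CPM), which has no treated partner, lay below all 3 treated libraries. With the replicate number as a block, edgeR gave a log2 fold change of -0.72, an unadjusted p of 0.00220 and an adjusted p of 0.542. What same-numbered libraries share is not known. Tnfsf13b had 3.88, 3.39 and 2.58 CPM, all under the lowest APP/PS1 library (4.98 CPM), with a log2 fold change of -0.67 (SE 0.36, 95% interval -1.46 to 0.12, adjusted p = 0.621). For both ligands the interval therefore held no difference as well as a decrease of more than 1 on the log2 scale.

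The other 7 receptors overlapped between APP/PS1+N-AS and APP/PS1. Tnfrsf1a had 25.2, 27.1 and 19.5 CPM after N-AS and a log2 fold change of -0.25 (95% interval -0.63 to 0.12). Tnfrsf1b had 121, 106 and 97.4 CPM and a log2 fold change of 0.25 (95% interval -0.13 to 0.62). Ltbr had 12.8, 13.3 and 7.01 CPM, so that replicate 3 alone lay under the APP/PS1 range. Tnfrsf11a had 228 to 295 CPM, Tnfrsf21 255 to 312 CPM, Fas 17.7 to 24.6 CPM and Cd40 1.16 to 2.66 CPM in the treated libraries. The adjusted p of these 7 receptors ran from 0.693 for Tnfrsf1a to 0.980 for Tnfrsf11a, whose sign turned under quantile normalization. In the same comparison the microglial markers had a median log2 fold change of -0.65. At an unadjusted p under 0.05, 10 of 14 were lower and 0 higher, against 8.83% of all genes in either direction. After adjustment 0 were called. The astrocyte markers Gfap (log2 fold change -1.67, SE 0.44) and S100b (-0.81, SE 0.24) were lower at an unadjusted p under 0.05, both with an adjusted p of 0.494. The part of these markers in the ligand and receptor values was not tested.

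Against WT, APP/PS1+N-AS microglia had 0 members past the adjusted threshold, where 0.187% of all genes were called with edgeR. Tnf, Tnfsf13b and Ltbr had an unadjusted p under 0.05 (6.73% of all genes), and the first 2 of them did not overlap (8.81% of all genes), while DESeq2 called Tnf alone. Tnf was 10.8 ± 3.52 CPM (SD, n = 3) after N-AS, with a log2 fold change against WT of 1.82 (SE 0.50, 95% interval 0.72 to 2.92, adjusted p = 0.331). The lowest treated library (6.86 CPM, 93 reads), replicate 3, stood above the highest WT library (4.15 CPM). Xist was as low in that treated library as in WT, and the part of sex in the Tnf difference was not tested. The replicate numbers were not taken as pairs with WT. As an alternative fit, the replicate number as a block gave Tnf an edgeR adjusted p of 0.0399, under the threshold. Tnfsf13b was 3.28 ± 0.656 CPM (SD, n = 3), with a log2 fold change of 1.39 (SE 0.41, 95% interval 0.50 to 2.29, adjusted p = 0.392). The difference of mean log2 CPM was 2.12 among library numbers 1 to 6. Among numbers 7 to 10 it was 0.27, between WT replicate 3 alone (2.12 CPM) and treated replicate 3 alone (2.58 CPM).

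**Figure D4:**
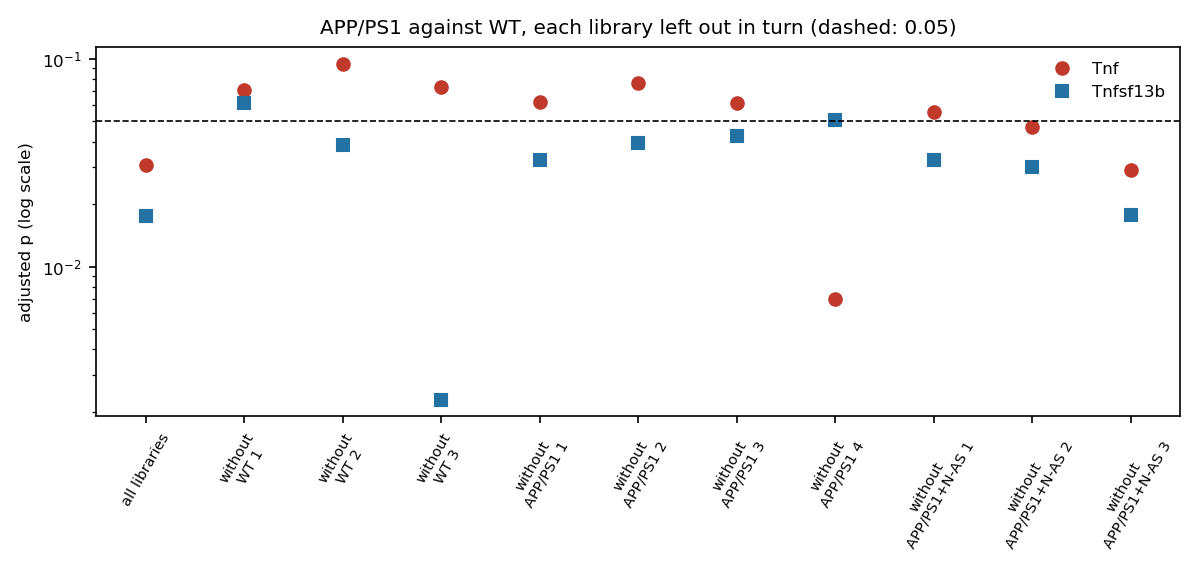
Adjusted p of Tnf (circles) and Tnfsf13b (squares) in APP/PS1 against WT, on a log axis, with all 10 libraries and with each library left out; the dashed line is 0.05. Tnf is under the line in 3 of the 10 reduced fits, with its lowest value (0.00696) without APP/PS1 replicate 4, and Tnfsf13b in 8 of 10.

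Partners of the members were read from the same libraries. Lymphotoxin genes Lta and Ltb, RANK ligand Tnfsf11 and Tnfsf14 had too few reads to be tested, with at most 13 reads in any library. Cd40lg had 0 to 29 reads, Fasl 2 to 36 reads and Tnfrsf17, a plasma cell receptor for BAFF, 1 to 25 reads per library. The main BAFF receptor Tnfrsf13c had 16.7 ± 2.12 CPM (SD, n = 3) in WT, 14.1 ± 0.926 CPM (SD, n = 4) in APP/PS1 mice and, after N-AS, 17.8 ± 4.86 CPM (SD, n = 3), with overlap. Tnfrsf13b, another BAFF receptor, had 1 to 33 reads per library. Tnfrsf11b, the soluble decoy for RANK ligand, had 13.6 ± 2.24 CPM (SD, n = 3) in WT and 7.84 ± 2.40 CPM (SD, n = 4) in APP/PS1, without overlap and with a log2 fold change of -0.79 (SE 0.24, adjusted p = 0.115). Adam17, which sheds TNF, had 40.6 ± 4.25 CPM (SD, n = 3) in WT and 58.6 ± 6.53 CPM (SD, n = 4) in APP/PS1, with a log2 fold change of 0.53 (SE 0.13, adjusted p = 0.0573).

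The remaining family and the pathway downstream were described by lists. Of 16 other ligands 9 had enough reads, and of 20 other receptors all 20 had; 0 of these 29 genes were called in any of the 3 comparisons with edgeR. In APP/PS1 against WT, 4 of the 29 had an unadjusted p under 0.05, a smaller share than the 17.2% of all genes, namely Tnfsf8, Tnfrsf12a and Tnfrsf13b with positive and Tnfrsf11b with negative log2 fold changes. At that threshold there were 2 in APP/PS1+N-AS against APP/PS1 (Tnfrsf11b and Tnfrsf18, where 8.83% of all genes passed it) and 0 in APP/PS1+N-AS against WT. Of 28 genes for TNF shedding and receptor-proximal signaling, which include adaptors, ubiquitin ligases, caspase-8 and the IKK complex, 0 were called and 6 had an unadjusted p under 0.05, close to the 17.2% of all genes. Their median log2 fold change was 0.05.

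Genes of the NF-κB system came next. Of 10 NF-κB subunits and inhibitors, 2 rose in APP/PS1 against WT, where 2.67% of all genes were called higher. These were Nfkb2 (log2 fold change 0.88, SE 0.21, adjusted p = 0.0493) and Rel (0.97, SE 0.23, adjusted p = 0.0497), both DNA-binding subunits. All 10 subunits and inhibitors had positive log2 fold changes, with a median of 0.63. Of 22 genes known to respond to NF-κB, 7 rose and 0 fell, against the same 2.67% of all genes called higher, with a median of 0.73. Those with the lowest adjusted p were the chemokines Ccl4 (2.69, SE 0.26, adjusted p = 0.000545) and Ccl3 (2.65, SE 0.33, adjusted p = 0.00188), the feedback inhibitor Tnfaip3 (1.95, SE 0.31, adjusted p = 0.00698) and the growth factor Csf1 (1.53, SE 0.26, adjusted p = 0.00953). The other 3 called were Il1b, Il1a and Cxcl10. The median over these responders lay under the 1.39 of the microglial markers in the same comparison. Ccl4, Ccl3, Tnfaip3 and Csf1 lay above that value. The part of cell makeup in the responder values was not tested.

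After N-AS, 0 genes of these lists were called against APP/PS1, and of the 28 signaling genes 0 had an unadjusted p under 0.05. Of the 22 responders, 4 were lower and 0 higher at an unadjusted p under 0.05 (Ccl4, Csf1, Ccl2 and Tnfaip3), against 8.83% of all genes in either direction. Negative log2 fold changes were present in 20 of 22, with a median of -0.41 over the list. The value for Ccl4 was -0.88 (SE 0.24, adjusted p = 0.494). All 10 NF-κB subunits and inhibitors had negative values with a median of -0.23. Of them 1, Relb, had an unadjusted p under 0.05, against the same 8.83% of all genes. Against WT, Ccl4 (log2 fold change 1.82, SE 0.27, adjusted p = 0.0256) and Ccl3 (2.09, SE 0.34, adjusted p = 0.0415) were still called higher in APP/PS1+N-AS.

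**Figure D5:**
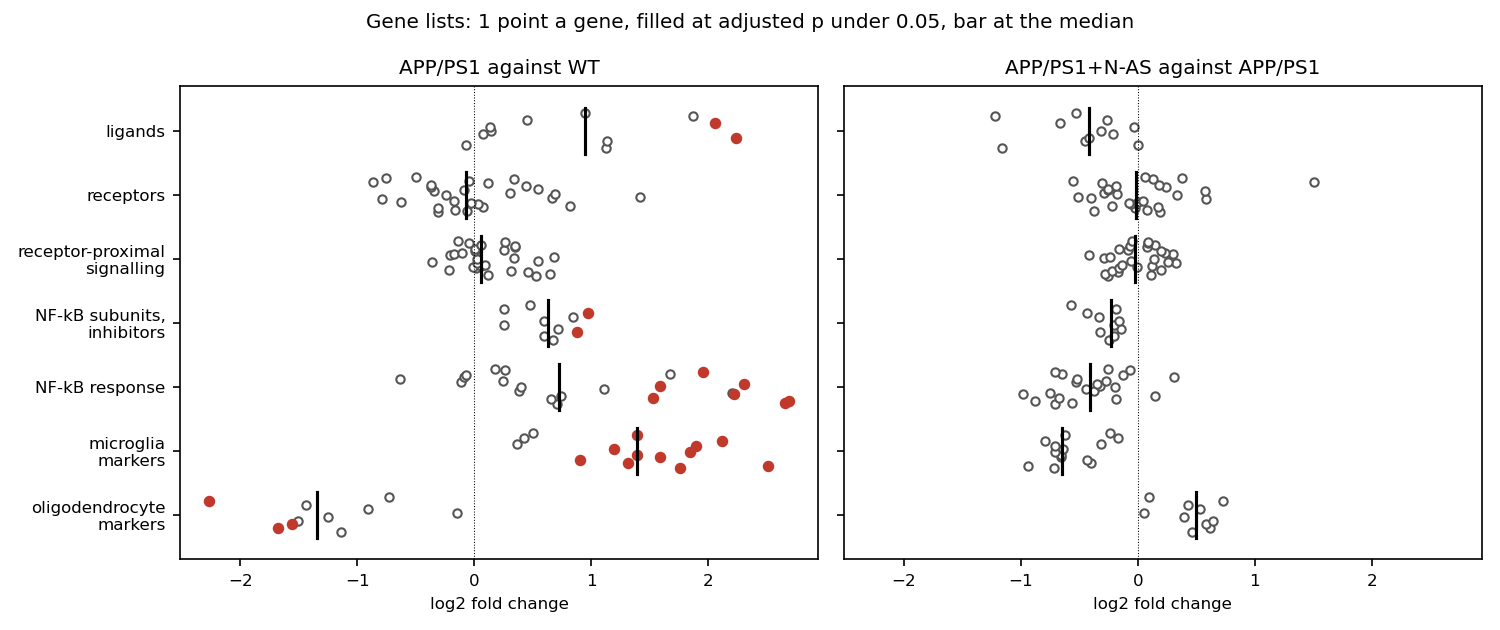
Log2 fold changes of the tested genes of 7 lists in APP/PS1 against WT (left) and APP/PS1+N-AS against APP/PS1 (right), with 1 point per gene, filled where the adjusted p is under 0.05 and a bar at the list median. On the left 7 of 22 NF-κB response genes and 11 of 14 microglial markers are filled; on the right no point is filled, and the medians of these lists are -0.41 and -0.65.

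Genes with the pattern most like each called ligand were found by the mean absolute difference of standardized log2 CPM over the 10 libraries. For Tnf they were Il1a (0.193), Pmaip1 (0.222) and Ccl3 (0.228), and for Tnfsf13b they were Rgs2 (0.163), Btk (0.164) and Spint1 (0.170). These are distances in SD units, where 0 would be an identical pattern, and no test was made of them.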

How the data were processed

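The authors prepared stranded libraries from ribosomal RNA-depleted RNA, aligned paired reads with TopHat (mm10, per the submitters' processing notes, which also name edgeR) and deposited raw read counts per gene symbol, 1 table per library, without normalization. Versions, the annotation and whether counting used strand are not given in the sources used here, so reads of overlapping antisense genes cannot be separated. Each table has 24481 lines; 103 lines sharing 43 symbols were summed, giving 24421 genes.

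Groups came from the labels and pooling from the study's methods. Genes were filtered with filterByExpr, scaled by TMM and tested with edgeR 4.0.16 (R 4.3.3) by the quasi-likelihood test in 1 model of 3 groups; p-values of 18727 genes were adjusted by Benjamini-Hochberg with a threshold of 0.05. SE is the log2 fold change divided by the root of F, and intervals are 95%. CPM uses TMM-scaled totals, and log2 CPM a prior count of 2. P-values measure the spread between pools of 2 mice. Reads were amplified without molecular identifiers, so counting alone understates the error, most for genes with few reads.

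Replicate numbers come from the labels, which do not say what they share. Residuals of same-numbered APP/PS1+N-AS and APP/PS1 libraries had positive correlations in all 3 pairs (r = 0.278, 0.142 and 0.309). These numbers were therefore taken as pairs, but only in setting single libraries side by side. The main test used no pairs and no block in any comparison, and the replicate block was an alternative fit. Libraries of WT were not taken as pairs: r was -0.485, 0.441 and -0.00962 for APP/PS1 with WT. It was -0.136, 0.348 and 0.240 for APP/PS1+N-AS with WT. Differently numbered libraries were not compared in this way. Replicates 1 and 2 carry library numbers 1 to 6, and the others 7 to 10, so same-numbered libraries also share a set of library numbers. Libraries of a group differed more across sets than within a set, by the chi-square of their reads per degree of freedom. In APP/PS1 it was 12.5 and 15.6 within a set and 37.5 to 87.7 across. In WT it was 43.9 within and 100 and 122 across, and in APP/PS1+N-AS 13.3 within and 42.8 and 29.2 across. What differed between the sets was not tested.

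Alternatives were DESeq2 1.42.0, limma 3.58.1 (voom, quantile normalization), other scalings and filters, a fit of 2 groups, a replicate block, a library-set factor and each library left out. Scripts were tested on simulated data. The members, gene lists and tests were chosen with earlier results of these data known. All members are named, with their partners, the list genes past 0.05 of lowest adjusted p (up to 4 per list and direction), and the 3 genes of mean CPM of at least 5 nearest each called member; others named were chosen after their values were seen.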

Additional observations from a re-analysis of the deposited data

Results flagged for a closer look

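Cd40 in APP/PS1 replicate 4 stood apart from its group. It had 2.57 CPM (54 reads), against 1.98, 2.06 and 1.98 CPM (23, 25 and 29 reads) in the other 3 APP/PS1 libraries. The gap to its nearest neighbor took up 0.856 of the range of the group. At so few reads the close values of the other 3 libraries do not measure the spread of the group well. The WT libraries ranged from 0.867 to 4.27 CPM and those after N-AS from 1.16 to 2.66 CPM, so the value lies inside the spread of the other groups. The 4.27 CPM was that of WT replicate 1, the library with the lowest total count. Chance flags about 1 in 20 single genes at this cutoff, and 10 genes were examined, so 1 flag among them is not rare.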

How the results depend on the processing

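Of 595 gene results under alternatives, 552 kept their direction and side of the threshold, 12 lost the call, 10 gained it and 21 changed sign. Against WT, APP/PS1 had 2 members called; the count was 5 at an unadjusted p, 1 under voom with quantile normalization (Tnfsf13b), 1 with at least 10 counts in every library (Tnf, since Tnfsf13b was then not tested), 1 with only the 2 groups fitted (Tnfsf13b), 1 with the replicate block (Tnf) and 0 to 3 with a library left out, 0 of them without WT replicate 1 and 3 without APP/PS1+N-AS replicate 3, which added Ltbr. It was 3 with DESeq2, which also added Ltbr, and 3 among library numbers 1 to 6, which added Tnfrsf1b as lower. After N-AS against APP/PS1 the count of 0 became 1 at an unadjusted p and 1 with DESeq2 (Tnfrsf25), and stayed 0 with the replicate block and in every fit with a library left out. For APP/PS1+N-AS against WT the count of 0 became 3 at an unadjusted p, 1 with DESeq2, 1 with the replicate block, 1 with a library-set factor (Tnf in all 3), 2 among library numbers 1 to 6 (Tnf and Tnfsf13b), and 0 to 1 with a library left out (Tnfsf13b without WT replicate 3). Across all genes the replicate block called 326 in place of 649 for APP/PS1 against WT and 5 in place of 35 for APP/PS1+N-AS against WT, and DESeq2 called 1297, 73 and 180 in the 3 comparisons. The adjusted p of Tnf in APP/PS1 against WT ranged from 6.89e-05 to 0.113 and that of Tnfsf13b from 3.21e-05 to 0.0699. The cause was not tested.

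Sign changes, none with a call, were as follows on the log2 scale. In APP/PS1 against WT, Cd40 was 0.38 under voom, 0.0016 under total counts and -0.46 to 0.67 with a library left out, Fas was -0.23 among library numbers 1 to 6 and -0.23 to 0.26 with a library left out, and Tnfrsf11a was -0.42 to 0.26. In APP/PS1+N-AS against APP/PS1, Tnfrsf11a was -0.0015 under voom, -0.053 with the replicate block, -0.0077 with the set factor, -0.11 among numbers 1 to 6 and -0.064 to 0.15 with a library left out; Ltbr was 0.18 among numbers 1 to 6 and -0.38 to 0.025 with a library left out, Tnfrsf1a 0.025 among numbers 1 to 6, and Tnfrsf21 -0.36 to 0.055 with a library left out. In APP/PS1+N-AS against WT, Tnfrsf21 was -0.050 among numbers 1 to 6 and -0.062 to 0.57 with a library left out, Cd40 -0.90 to 0.29, Fas -0.058 to 0.44 and Tnfrsf11a -0.38 to 0.30. Depth limits Cd40 and Tnfsf13b most, with 18 to 54 and 8 to 120 reads per library.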

Other observations

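The receptors of TNF can also be read as a ratio within each library, which does not depend on library scaling. Tnfrsf1b had 6.76, 4.95 and 6.52 reads per Tnfrsf1a read in WT, 3.01, 3.15, 2.84 and 3.73 in APP/PS1, and 4.80, 3.90 and 5 in APP/PS1+N-AS. The 4 APP/PS1 libraries were the lowest, without overlap with either other group. The ratio was chosen after the values were seen, and no test was made of it.

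Tnfrsf18, the receptor known as GITR and another family gene outside the 10, followed the order seen for Tnfrsf25. It had 3.54 ± 0.131 CPM (SD, n = 3) in WT, 2.79 ± 0.333 CPM (SD, n = 4) in APP/PS1 mice and, after N-AS, 4.16 ± 0.685 CPM (SD, n = 3). The log2 fold change of APP/PS1+N-AS against APP/PS1 was 0.58 (SE 0.21, edgeR adjusted p = 0.517), and the libraries did not overlap. Like the ratio, it was picked out after its values were seen.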
